A study of Mus musculus with 12 samples.

Results

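Fatty acids can be made from acetyl-CoA in the cytosol, and 9 genes of that route are described here in mouse eyelid tissue: the enzymes Acly, Acss2, Acaca, Acacb, Fasn and Me1, and the regulators Thrsp, Srebf1 and Mlxipl. They were taken by gene symbol from a deposited table of 21936 genes, with no cutoff on measured values. The 9 genes were chosen with earlier results of these data known. All 9 were found, each once, and all 9 were above 1 FPKM (reads per kilobase of exon, scaled to sequencing depth) in at least 2 libraries, the condition that 13228 genes of the table met.

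The samples came from male C57BL/6 mice that were 6 to 8 weeks old at the start, were kept under 12 h of light a day and, after 1 week of adaptation, ate a standard diet of 10 kcal% fat (controls, the CTL libraries) or a high-fat diet of 60 kcal% fat (the HF libraries). Tissue was taken at 9h, 15h or 21h, with 2 libraries for each diet and time and 12 libraries in 6 groups. The labels call the tissue meibomian gland and give 3 months of diet, while the series text speaks of whole upper and lower eyelids and of 4 months. It is not stated if each library holds 1 mouse or pooled mice, so the p-values only weigh differences against the spread of these libraries, which may be partly technical. Every mouse was male and of 1 strain, and no genotype or drug differed between groups.

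De novo lipogenesis turns surplus carbon into fatty acids. Citrate leaves the mitochondria and is cleaved to acetyl-CoA, a carboxylase adds a carbon to give malonyl-CoA, and fatty acid synthase joins these units with the reducing power of NADPH. The meibomian gland, a modified sebaceous gland of the eyelid margin, fills its cells (meibocytes) with lipid and sheds them whole, and its secretion covers the tear film.

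The factors most closely tied to this route bind the DNA upstream of these genes, so the windows before the start sites are shown first. SREBP-1c, a product of Srebf1, binds sterol regulatory elements, often beside CCAAT boxes bound by NF-Y and GC boxes bound by Sp1. ChREBP, the product of Mlxipl, binds carbohydrate response elements, which are built from paired E-boxes. The 4 sequences below come from RefSeq on GRCm38.p6, run 5′ to 3′ on the strand of the gene and end 1 base before a start site. They were chosen because these 4 windows hold no annotated exon and cover the synthase, the citrate enzyme and both transcription factor genes. Capitals mark matches on either strand to a CCAAT box (CCAAT), a GC box (GGGCGG) or an E-box (CACGTG).
Fasn, chr11:120824548-120824797, minus strand: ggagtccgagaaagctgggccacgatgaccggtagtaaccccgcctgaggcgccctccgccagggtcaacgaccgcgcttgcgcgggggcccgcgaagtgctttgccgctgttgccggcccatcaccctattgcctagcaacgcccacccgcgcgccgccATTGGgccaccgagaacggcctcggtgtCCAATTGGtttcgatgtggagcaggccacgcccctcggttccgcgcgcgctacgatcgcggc
Acly, chr11:100528001-100528250, minus strand: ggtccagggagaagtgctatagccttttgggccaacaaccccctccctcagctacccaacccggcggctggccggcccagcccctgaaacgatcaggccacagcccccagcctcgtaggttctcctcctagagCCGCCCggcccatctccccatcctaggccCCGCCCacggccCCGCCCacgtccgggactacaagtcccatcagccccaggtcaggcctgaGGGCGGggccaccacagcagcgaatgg
Srebf1, downstream start, chr11:60210472-60210721, minus strand: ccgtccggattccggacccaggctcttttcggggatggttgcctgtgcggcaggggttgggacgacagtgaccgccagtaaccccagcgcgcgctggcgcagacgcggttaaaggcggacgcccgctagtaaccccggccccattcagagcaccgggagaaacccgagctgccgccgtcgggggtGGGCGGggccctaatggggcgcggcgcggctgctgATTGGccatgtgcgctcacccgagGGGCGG
Mlxipl, upstream start, chr5:135089640-135089889, plus strand: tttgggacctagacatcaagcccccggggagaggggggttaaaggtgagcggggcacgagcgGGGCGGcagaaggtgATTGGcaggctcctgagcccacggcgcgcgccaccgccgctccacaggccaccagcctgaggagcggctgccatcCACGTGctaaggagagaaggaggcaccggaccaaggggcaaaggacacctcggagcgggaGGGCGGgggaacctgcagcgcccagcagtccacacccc

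RefSeq lists 13 windows of 300 bases (250 before and 50 after a start) for the 9 genes, and 32851 such windows for all genes. A CCAAT box was in 9 of the 13 windows, of 8 genes, against 37.41% of all windows. Acaca was the gene whose listed window had none. That window lay around a start at base 84195438, inside the Acaca locus, which begins at base 84129672. The listed Acacb window also lay inside its locus, around a start at base 114165518, while the locus begins at base 114146535. The DNA just before either locus was not searched, so the presence of any of these motifs there was not tested. A GC box was in 6 of the 13 windows, of 5 genes (Acly, Acss2, Me1, Srebf1 and Mlxipl), against 35.66% of all. The classical sterol regulatory element was in none of the 13 and in 0.09% of all windows, and a looser form, TCACNCCAC, was in 1 of the 13, the downstream window of Mlxipl, and in 1.24% of all. An E-box was in 1 of the 13 windows, the upstream one of Mlxipl at bases -98 to -93 from the start, against 7.15% of all. The D-box TTATGNAA, bound by clock output factors, was in none of the 13 and in 3.38% of all, and the carbohydrate response element with both its E-boxes perfect was in no window of any gene. A match is a string of letters and not a measured site, and the deposited values do not separate reads from different start sites.

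Acly and Acss2 supply acetyl-CoA. Acly, ATP citrate lyase (ENSMUSG00000020917, GRCm38 chr11:100476353-100528000, minus strand, 30 merged exons), measured 84.7 and 98.6 FPKM at 9h, 94.3 and 87.7 FPKM at 15h and 73.3 and 93.6 FPKM at 21h in controls. In high-fat mice it measured 81.7 and 110.3 FPKM at 9h, 95.2 and 117 FPKM at 15h and 94.7 and 96.8 FPKM at 21h. Both high-fat libraries were above both controls at 15h and 21h, and the groups overlapped at 9h. Acly averaged 88.7 ± 9.01 FPKM over the control and 99.2 ± 12.4 FPKM over the high-fat libraries (SD, n = 6 each). The difference between diets averaged over the 3 times, on the log2(FPKM + 1) scale used for all differences here, was 0.16 ± 0.10 (SE; limma, Benjamini-Hochberg adjusted p = 0.533), with a 95% interval of -0.07 to 0.38.

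Acss2, the acetyl-CoA synthetase that activates acetate (ENSMUSG00000027605, chr2:155517948-155585724, plus strand, 19 merged exons), measured 14.7 and 17.4 FPKM at 9h, 21.7 and 20.3 FPKM at 15h and 15.1 and 22.03 FPKM at 21h in controls. High-fat libraries measured 18.6 and 19.3 FPKM at 9h, 22.1 and 23.1 FPKM at 15h and 24.02 and 22.8 FPKM at 21h. The high-fat pair was above the control pair at all 3 times. Each time the lower high-fat library exceeded the higher control by less than the gap between the 2 controls. The averages were 18.5 ± 3.26 FPKM over the controls against 21.7 ± 2.21 FPKM over the high-fat libraries, and the averaged log2 difference was 0.22 ± 0.09 (limma, adjusted p = 0.303). Exons of Acss2 share 395 bases with Gss and 197 with Ggt7 on the opposite strand, 3.89% and 1.94% of its exon bases, and the strand setting of the counting is not given in the sources used here. It also shares 335 bases (3.3%) with the antisense gene Acss2os. In the same way Mlxipl shares 235 exon bases (4.24%) with Gm43500, Srebf1 109 (1.93%) with Rai1 and Me1 30 (0.78%) with A330041J22Rik, so a small part of these 4 levels could belong to the neighbour.

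Acaca and Acacb encode the acetyl-CoA carboxylases, the committed step of the route. Acaca makes the cytosolic form whose malonyl-CoA feeds the synthase, and Acacb makes a form at the mitochondrial surface whose malonyl-CoA is known to restrain fatty acid oxidation. Acaca (ENSMUSG00000020532, chr11:84129672-84401651, plus strand, 59 merged exons) measured 7.04 and 8.96 FPKM at 9h, 8.03 and 7.35 FPKM at 15h and 6.20 and 7.86 FPKM at 21h in controls. On the high-fat diet it measured 7.91 and 8.95 FPKM at 9h, 9.89 and 10.7 FPKM at 15h and 7.87 and 8.79 FPKM at 21h. High-fat libraries were above controls at 15h and 21h and overlapped them at 9h. The averages were 7.57 ± 0.941 and 9.02 ± 1.11 FPKM, and the averaged log2 difference was 0.22 ± 0.08 (limma, adjusted p = 0.262).

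Acacb (ENSMUSG00000042010, chr5:114146535-114250761, plus strand, 55 merged exons) had the largest averaged difference of the 9 genes on this scale. In controls it measured 17.3 and 19.6 FPKM at 9h, 21.2 and 19.2 FPKM at 15h and 18.2 and 20.3 FPKM at 21h. The high-fat values were 19.95 and 25.2 FPKM at 9h, 23.01 and 29.4 FPKM at 15h and 30.7 and 25.3 FPKM at 21h. The high-fat pair was above the control pair at all 3 times, and 5 of 6 high-fat libraries were above the highest control. The averages were 19.3 ± 1.43 FPKM over the controls against 25.6 ± 3.99 FPKM over the high-fat libraries. The averaged log2 difference of 0.38 ± 0.09 corresponds to 1.3-fold (95% interval 1.13 to 1.5) and did not pass the threshold (limma, adjusted p = 0.0879, unadjusted p = 0.00246). By time it was 0.27 ± 0.16 at 9h, 0.35 ± 0.16 at 15h and 0.51 ± 0.16 at 21h, and a difference between the times was not shown (F test of the interaction in limma, adjusted p = 0.999).

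The FPKM level of Acacb was above that of Acaca in all 12 libraries, by a ratio of 2.72 ± 0.432 (SD, n = 12; lowest 2.19, highest 3.90). Acaca has 17074 bases of merged exon, of which its longest principal transcript holds 9513. With both genes taken per base of that transcript the mean ratio was 1.66, so the size of the gap depends on the length used (this second length was chosen after the values had been seen). The ratio averaged 2.57 ± 0.243 in controls and 2.86 ± 0.546 in high-fat mice (n = 6 each), and the highest, 3.90, was in the high-fat library numbered 3 at 21h. The averaged log2 difference of the ratio between diets was 0.15 (2-sided exact permutation test that swapped diet labels inside each time, 216 permutations, p = 0.12, smallest possible 0.00926). Without the high-fat library numbered 2 at 15h this difference was 0.19, and leaving out each library in turn moved it between 0.085 and 0.22. With all libraries the difference by time was 0.20 at 9h, -0.03 at 15h and 0.29 at 21h.

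Fasn, fatty acid synthase, carries out every step from malonyl-CoA to palmitate on 1 protein (ENSMUSG00000025153, chr11:120805846-120824547, minus strand, 42 merged exons). Control libraries measured 52.1 and 65.7 FPKM at 9h, 63.7 and 59.8 FPKM at 15h and 46.3 and 58.9 FPKM at 21h. In high-fat mice it measured 54.6 and 71.5 FPKM at 9h, 66.5 and 87.04 FPKM at 15h and 67.3 and 74.9 FPKM at 21h. Both high-fat libraries were above both controls at 15h and 21h, while at 9h the groups overlapped. The averages were 57.7 ± 7.31 FPKM over the controls against 70.3 ± 10.7 FPKM over the high-fat libraries. The averaged log2 difference was 0.28 ± 0.11, or 1.21-fold (95% interval 1.02 to 1.43; limma, adjusted p = 0.297). Without the high-fat libraries numbered 6 at 15h and 21h, which were also set apart by immediate early genes, it was 0.19 (adjusted p = 0.572).

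Me1, the cytosolic malic enzyme that supplies NADPH, had a mean level as high as that of Acly (ENSMUSG00000032418, chr9:86581371-86695953, minus strand, 17 merged exons). The control values were 94.3 and 105 FPKM at 9h, 92.4 and 77.3 FPKM at 15h and 76.04 and 91.8 FPKM at 21h. High-fat libraries measured 83.5 and 116 FPKM at 9h, 113 and 98.3 FPKM at 15h and 94.4 and 90.5 FPKM at 21h. Only at 15h did the diet groups not overlap, and the highest and the lowest high-fat library were both from 9h. The averages were 89.5 ± 11.02 and 99.4 ± 12.9 FPKM, and the averaged log2 difference was 0.15 ± 0.10 (limma, adjusted p = 0.549).

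Thrsp, also called Spot 14, is a small protein tied to this route and is strongly expressed in lipogenic tissues such as liver and fat. Here it was near the lower limit, with 13 to 85 reads per library recovered from the FPKM values (ENSMUSG00000035686, chr7:97412938-97417730, minus strand, 2 merged exons). In controls it measured 0.968 and 0.332 FPKM at 9h, 1.50 and 1.73 FPKM at 15h and 2.61 and 1.27 FPKM at 21h. On the high-fat diet it measured 1.96 and 2.32 FPKM at 9h, 1.25 and 1.26 FPKM at 15h and 2.43 and 2.03 FPKM at 21h. High-fat libraries were above the controls at 9h, below them at 15h and overlapped them at 21h. The log2 difference at 9h was 0.95 ± 0.24 (limma, adjusted p = 0.298, unadjusted p = 0.0028), and the averages over times were 1.40 ± 0.765 and 1.88 ± 0.512 FPKM. The FPKM + 1 scale compresses a gene this low, and with a pseudocount of 0.1 the averaged difference was 0.55 in place of 0.30, above that of Acacb (0.39).

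Srebf1 encodes SREBP-1a and SREBP-1c from separate start sites, the second being the form that insulin raises in lipogenic tissue (ENSMUSG00000020538, chr11:60199089-60222581, minus strand, 18 merged exons). Control libraries measured 35.3 and 40.01 FPKM at 9h, 38.4 and 33.4 FPKM at 15h and 30.8 and 33.4 FPKM at 21h. The high-fat values were 38.02 and 43.5 FPKM at 9h, 41.1 and 38.2 FPKM at 15h and 35.8 and 40.8 FPKM at 21h. The groups separated at 21h alone, and 3 of 6 high-fat libraries were above the highest control. It varied least of the 9 genes, with a coefficient of variation of 9.98% over the 12 libraries. The averages were 35.2 ± 3.43 and 39.6 ± 2.75 FPKM, and the averaged log2 difference was 0.17 ± 0.07 (limma, adjusted p = 0.323).

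Mlxipl, which encodes the glucose-sensing factor ChREBP, was low, with 110 to 216 reads per library (ENSMUSG00000005373, chr5:135089890-135138382, plus strand, 15 merged exons). The control values were 1.61 and 1.92 FPKM at 9h, 2.51 and 1.71 FPKM at 15h and 1.87 and 1.74 FPKM at 21h. In high-fat mice it measured 2.10 and 2.13 FPKM at 9h, 1.72 and 1.85 FPKM at 15h and 1.41 and 1.84 FPKM at 21h. Only at 9h did the groups not overlap, with the high-fat pair higher, and no high-fat library was above the highest control. The averages were 1.89 ± 0.322 and 1.84 ± 0.266 FPKM, and the averaged log2 difference was -0.02 ± 0.09 (limma, adjusted p = 0.934).

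**Figure D1:**
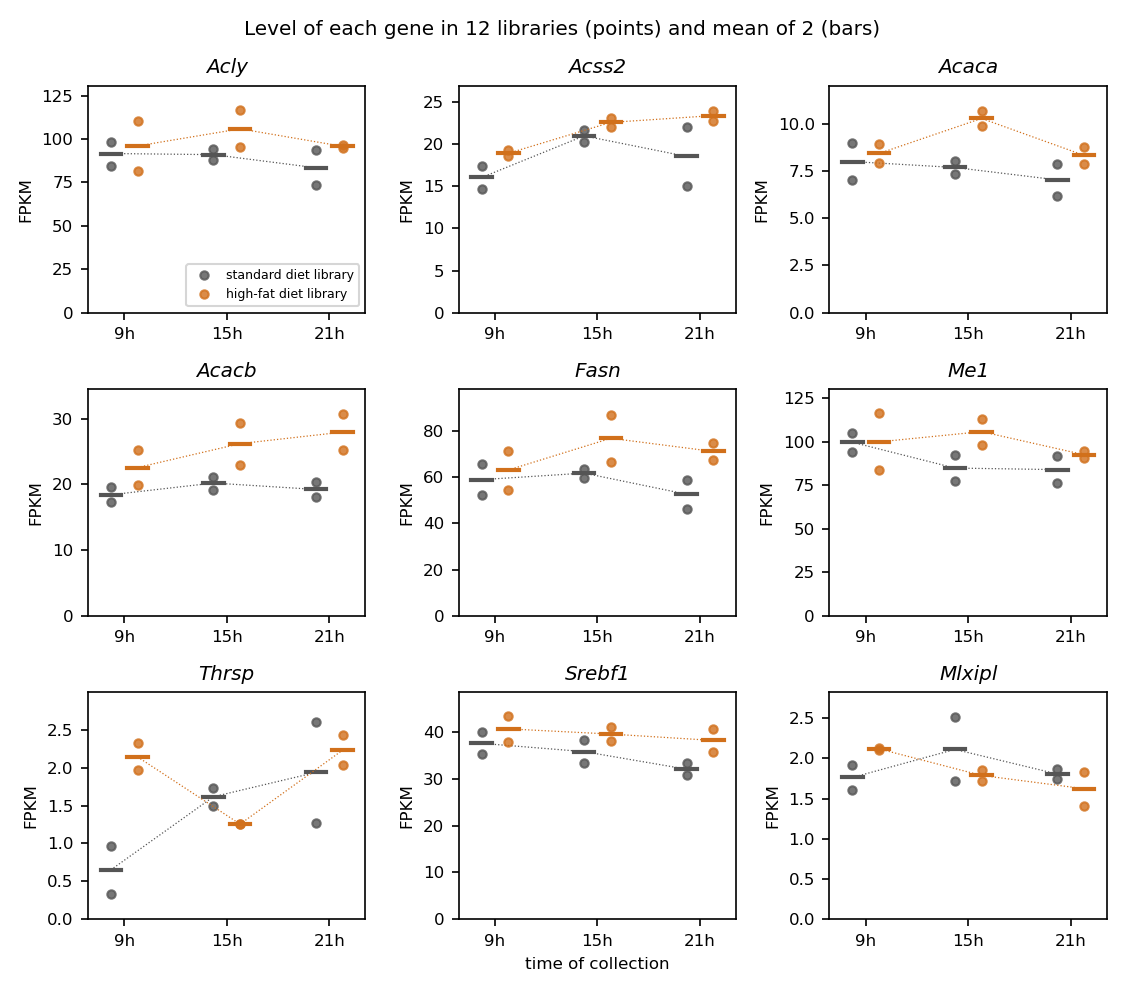
FPKM of each gene (vertical axis, starting at 0) by time of collection (horizontal axis); points are single libraries, bars are the mean of the 2 libraries of a group and dotted lines join the means, in grey for the standard and orange for the high-fat diet. Acacb and Acss2 have both orange points above both grey points at all 3 times, and Thrsp has them above at 9h and below at 15h.

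Read per kilobase of merged exon, the mean levels over all 12 libraries ran in this order: Me1 94.4 ± 12.5, Acly 94.0 ± 11.7, Fasn 64.0 ± 10.9, Srebf1 37.4 ± 3.73, Acacb 22.4 ± 4.35, Acss2 20.1 ± 3.11, Acaca 8.30 ± 1.24, Mlxipl 1.87 ± 0.283 and Thrsp 1.64 ± 0.668 FPKM (SD, n = 12). Me1 and Acly, Acacb and Acss2, and Mlxipl and Thrsp lie within each other's spread, and the other neighbours lie further apart than the SD of either. Me1 and Acly were above 96.6% of the genes tested, Acaca above 56.5% and Thrsp above 12.1%. Over the longest principal transcript alone Acss2 would stand at 69.7, beside Fasn at 69.7, since its merged exons are 10163 bases long and that transcript 2931.

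None of the 9 genes passed the test for diet averaged over the times, where limma called 262 of 13228 genes, 27 higher and 235 lower in high-fat mice, or 1.98% of the genes tested. At an unadjusted p under 0.05, 5 of the 9 had a difference (Acacb, Acaca, Fasn, Acss2 and Srebf1, all higher), against 1860 of the 13228 genes. Tested on the recovered reads with limma-voom, 0 of 9 passed and the smallest adjusted p was 0.0709. There 6 of the 9 had an unadjusted p under 0.05, as did 1837 genes in all. The difference was above 0 in 8 of 9 genes with a median of 0.22, while over all genes tested it was above 0 in 48.0% with a median of -0.01.

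Single times gave no call among the 9 genes either. At 9h limma called 0 of all genes tested (0.0%; 955 at an unadjusted p under 0.05, of which Thrsp was the 1 member). At 15h it called 8 genes (0.0605%), none of them a member. There 1531 genes (11.6%) had an unadjusted p under 0.05. Acaca was the 1 member among these, with a log2 difference of 0.38 ± 0.14 (limma, adjusted p = 0.363). At 21h it called 1 gene (0.00756%), and 711 genes (5.37%) had an unadjusted p under 0.05. The members among these 711 were Acacb and Fasn, at 0.51 ± 0.16 and 0.44 ± 0.19 (limma, adjusted p = 0.575 and 0.908). On the recovered reads, limma-voom called 0 of 9 at each time, with 1, 2 and 3 of them at an unadjusted p under 0.05 at 9h, 15h and 21h. Over all genes the counts at that p were 949, 1416 and 610.

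The pairs were also compared by whether their libraries overlapped. Both high-fat libraries were above both controls for 4 of 9 genes at 9h (Acacb, Acss2, Thrsp and Mlxipl), where 15.0% of the genes tested did so. At 15h this held for 6 of 9 (all but Thrsp, Srebf1 and Mlxipl) against 19.0%, and at 21h for 6 of 9 (Acaca, Acacb, Fasn, Acly, Acss2 and Srebf1) against 15.6%. Both were below for 1 of 9 at 15h, Thrsp, against 26.7%, and for none at 9h and 21h against 14.8% and 22.2%. The 2 genes separated upward at all 3 times were Acacb and Acss2, as were 1.60% of the genes tested. The test of diet by time called none of the 9 and 0.0% of all genes (405 genes at an unadjusted p under 0.05, with Thrsp as the 1 member; limma-voom likewise 0 of 9 and 1), so differences between times were not shown.

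**Figure D2:**
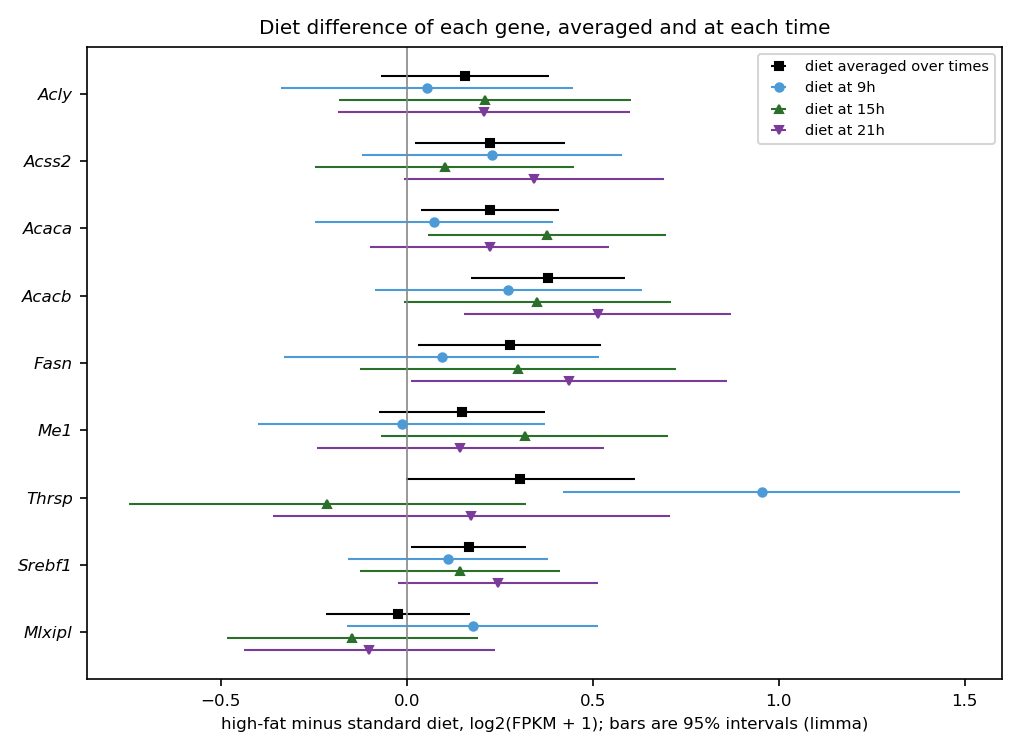
Difference between high-fat and standard diet in log2(FPKM + 1) (horizontal axis) for each gene (vertical axis), averaged over times and at 9h, 15h and 21h; bars are 95% intervals from limma. The averaged interval lies above 0 for Acacb (0.17 to 0.59), Fasn, Acaca, Acss2 and Srebf1 before adjustment, and that of Mlxipl spans 0 (-0.22 to 0.17).

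The libraries were of even depth, with 14096362 to 17889158 reads recovered from the steps between FPKM values, and a single read over 2 kb stood for 0.0279 to 0.0355 FPKM, so counting error matters here for Thrsp and Mlxipl above all. Of 18 meibocyte and sebocyte markers 16 passed the filter, led by Awat2 at a mean of 1137 FPKM and Cidea at 579, and none was at 0 in all libraries. The list holds both cell types, so it cannot tell the meibomian gland from other sebaceous glands. Muscle markers summed to 2359 to 6295 FPKM, epidermal keratinocyte markers to 3086 to 4545 and hair follicle markers to 1004 to 2210, so the libraries held more than the gland. Since these are bulk samples, fewer cells of a type and less RNA per cell cannot be told apart. Immediate early genes stood high in the high-fat libraries numbered 6 at 15h and 21h, with sums of 922 and 1173 FPKM against 322 to 584 in the other 10 libraries.

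Markers of the gland leaned the same way as the 9 genes when diet was averaged over times. The summed FPKM of the meibocyte and sebocyte markers was 3321 to 4872 in controls and 3628 to 5685 in high-fat libraries. By time it overlapped at 9h (4352 and 4872 in controls, 3628 and 5685 in high-fat) and separated at 15h (3491 to 3981 against 4507 to 4901) and at 21h (3321 to 4236 against 4439 to 4954). Of the 16 markers, 15 had a diet difference above 0, with a median of 0.19, and 1 was called: Soat1, which esterifies cholesterol, rose from 105 ± 11.4 to 141 ± 24.6 FPKM (0.42 ± 0.08, limma, adjusted p = 0.0408). At single times the median over these markers was 0.00, 0.32 and 0.28, and that over the 9 genes 0.11, 0.21 and 0.22.

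Fat cells express the same lipogenic genes. Adipocyte markers summed to 223 to 313 FPKM in controls and 276 to 382 FPKM in high-fat libraries, 9 of the 11 tested had a diet difference above 0 with a median of 0.24, and none passed. Adipoq averaged 3.44, Plin1 0.729 and Lep 0.353 FPKM, while Plin4 stood at 35.4, Lpl at 16.0, Cfd at 13.4 and Car3 at 12.0 FPKM, and Cd36, which other cells also express, made up 47.05% of the sum. The diet difference was 0.55 ± 0.20 for Adipoq, 0.47 ± 0.12 for Plin4 and 0.37 ± 0.10 for Lpl (limma, adjusted p = 0.246, 0.0967 and 0.115). Over the 11 adipocyte markers tested the differences ran from -0.41 to 0.55, with 2 below 0. T cell markers fell, with 6 of 9 called lower and a median of -0.83. Macrophage markers had a median of -0.55 (0 of 8 above 0) and epidermal keratinocyte markers of -0.27 (2 of 10), with none called. Hair follicle markers had a median of 0.07 (9 of 11 above 0) and immediate early genes of 0.62 (10 of 10), also with none called. The part of any of these lists in the differences of the lipogenic genes was not tested.

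Within a group, the 9 genes often leaned to the same library. At 9h on the high-fat diet all 9 were higher in the library numbered 7 than in that numbered 6, with a median log2 difference of 0.19, while the median over all genes tested was -0.15. In controls, 8 of 9 were higher in number 3 than in number 2 at 9h, 8 of 9 higher in number 2 than in number 3 at 15h, and 7 of 9 higher in number 2 than in number 1 at 21h. In the high-fat pairs at 15h and 21h, 7 and 5 of 9 were higher in number 6. Meibocyte markers leaned the same way in 5 of the 6 pairs: their medians in the same order of pairs (high-fat 9h, control 9h, control 15h, control 21h, high-fat 15h) were 0.40, 0.15, -0.18, 0.23 and 0.15, and in the high-fat pair at 21h the median was -0.12 against 0.03 for the 9 genes. Adipocyte markers had medians of -0.20, -0.36, -0.15, -0.31, 0.21 and 0.02 in those 6 pairs.

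Over the 12 libraries, the 7 genes other than Thrsp and Mlxipl gave 21 pairwise Pearson correlations of 0.24 to 0.94 with a median of 0.71, the highest between Fasn and Acly. The 15 pairs with Thrsp or Mlxipl ran from -0.37 to 0.36 with a median of -0.00. The libraries share diet, time, depth and tissue makeup, so these values describe the 12 libraries and no more. The lowest control library, number 1 at 21h, had a median deviation of -0.30 from the means of the genes, with Thrsp, at 0.50, and Mlxipl, at 0.01, above their own means. The highest library, high-fat number 6 at 15h, had a median deviation of 0.21.

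**Figure D3:**
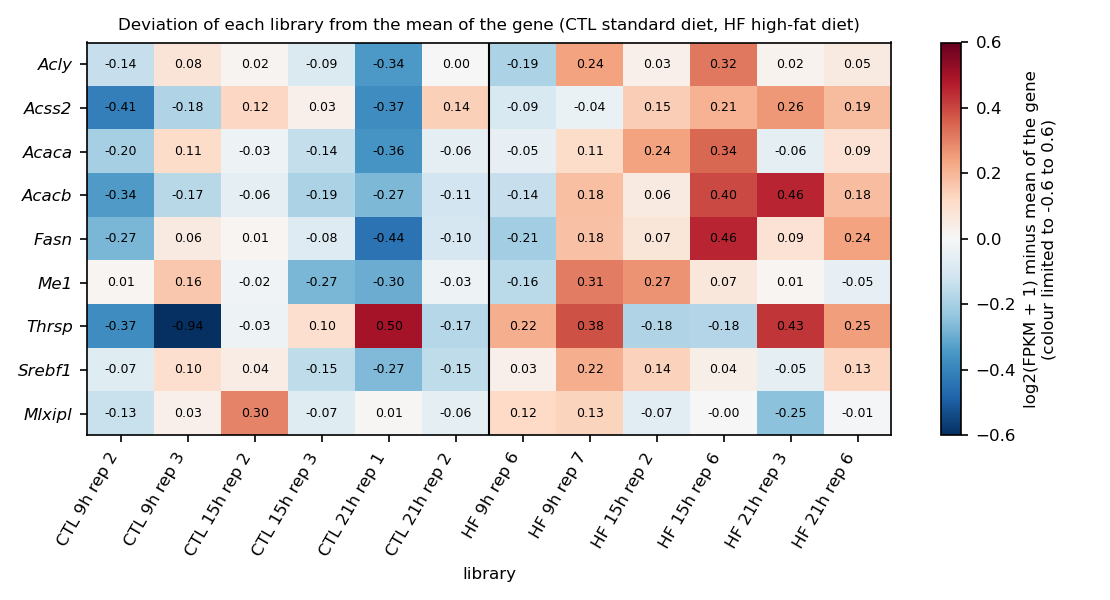
Deviation of each library (columns) from the mean of each gene (rows) in log2(FPKM + 1), with the value written in each cell and colour limited to -0.6 to 0.6; CTL is the standard and HF the high-fat diet. Columns tend to share a colour in the rows of Acly, Acss2, Acaca, Acacb and Fasn, while Thrsp and Mlxipl do not follow them.

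For each member, the genes whose levels ran most like it over the 12 libraries were taken from 7809 genes above 5 FPKM on average. The nearest to Acacb was Fdft1, squalene synthase, at r = 0.98 (Spearman rho 0.92), the nearest to Acss2 were Acat2, Hmgcs1 and Msmo1 at r = 0.94, 0.93 and 0.93, and Lss, lanosterol synthase, stood second for Fasn at r = 0.93, after Acly at r = 0.94. Acly itself was nearest to Rab1b, at r = 0.94, with Fasn and Cth next. Acaca was nearest to Arhgef5 (r = 0.97), Me1 to Dsg1b (0.95), Srebf1 to Stau2 (0.94), Thrsp to Nhp2 (0.89) and Mlxipl to Pdhx (0.85). These r values are the highest of many over 12 points.

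Neighbouring steps were read for diet in lists of genes. Over 9 lists of neighbouring genes, 101 of 108 passed the filter, 1 was called higher and 0 lower (0.99%, beside 1.98% of all genes tested), and the median difference was 0.02, with 59 of 101 above 0. Among the 12 genes of citrate export and carbon supply none passed the test and 9 were above 0. The largest was Slc25a1, the mitochondrial citrate carrier, with 118 ± 10.2 FPKM on the standard and 138 ± 18.7 FPKM on the high-fat diet (0.21 ± 0.10, limma, adjusted p = 0.403).

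NADPH can also come from the pentose phosphate pathway and isocitrate dehydrogenase. Of the 10 genes tested for NADPH supply none passed, and their median was 0.02. G6pdx, the first enzyme of that pathway, differed by 0.08 ± 0.07, and Me2, a mitochondrial malic enzyme, by -0.24 ± 0.09 (limma, adjusted p = 0.651 and 0.252), against 0.15 ± 0.10 for Me1.

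Genes listed as partners of the carboxylases and the synthase encode, among others, biotin enzymes, a decarboxylase that removes malonyl-CoA, thioesterases and acyl-CoA synthetases. Of 13 tested none passed, 10 were above 0 and the median was 0.08. Btd, which recycles the biotin that carboxylases carry, differed by 0.24 ± 0.09, and Acot1, an acyl-CoA thioesterase, by 0.35 ± 0.14 (limma, adjusted p = 0.263 and 0.327). AMPK, the kinase that phosphorylates and inhibits both carboxylases, had 11 subunit and upstream genes tested, of which none passed, 2 were above 0 and the median was -0.06.

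Other regulators were read by 3 lists. SREBP processing genes gave 0 of 11 calls and a median of 0.03, with Insig1, which holds SREBP in the endoplasmic reticulum and is itself an SREBP target, at 0.16 ± 0.10 (limma, adjusted p = 0.547). Among 9 partners and targets of ChREBP, 1 was called: Txnip, a glucose-induced target, rose from 134 ± 25.2 to 184 ± 31.4 FPKM (0.46 ± 0.09, limma, adjusted p = 0.0375). Arrdc4, a relative of Txnip with the same kind of control, differed by -0.18 ± 0.07 (adjusted p = 0.3), and Mlxipl itself by -0.02. Of 14 other transcription factors of lipogenic promoters none passed, with Pparg at 0.18 ± 0.09 and Usf1 at -0.20 ± 0.07 (limma, adjusted p = 0.432 and 0.269).

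Meibum is rich in branched and very long chains, so 2 further lists were read beside the members. Genes that supply branched and odd-chain primers had 0 of 13 calls but 12 of 13 above 0 with a median of 0.11, led by Dbt and Bckdhb, parts of the branched-chain keto acid dehydrogenase, at 0.31 ± 0.09 and 0.33 ± 0.09 (limma, adjusted p = 0.129 and 0.152). Mitochondrial fatty acid synthesis, a separate route with its own enzymes, had 0 of 8 calls and a median of -0.01.

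Lists of the enzymes that follow or run beside the route were read as well. Desaturases and elongases had 0 of 17 calls, 14 above 0 and a median of 0.16, with Elovl1 and Elovl3, which lengthen chains in sebaceous glands, at 0.30 ± 0.10 and 0.29 ± 0.12 (limma, adjusted p = 0.231 and 0.332). Cholesterol synthesis, under the control of SREBP-2, had 2 calls of 20, both higher, 19 above 0 and a median of 0.21. Pmvk, phosphomevalonate kinase, rose from 104 ± 13.8 to 168 ± 38.1 FPKM (0.67 ± 0.13, limma, adjusted p = 0.0322). By time the cholesterol list had medians of 0.03, 0.26 and 0.33 and the desaturases and elongases of -0.00, 0.25 and 0.23, beside 0.11, 0.21 and 0.22 for the 9 genes. No difference between these lists and the 9 genes was tested.

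**Figure D4:**
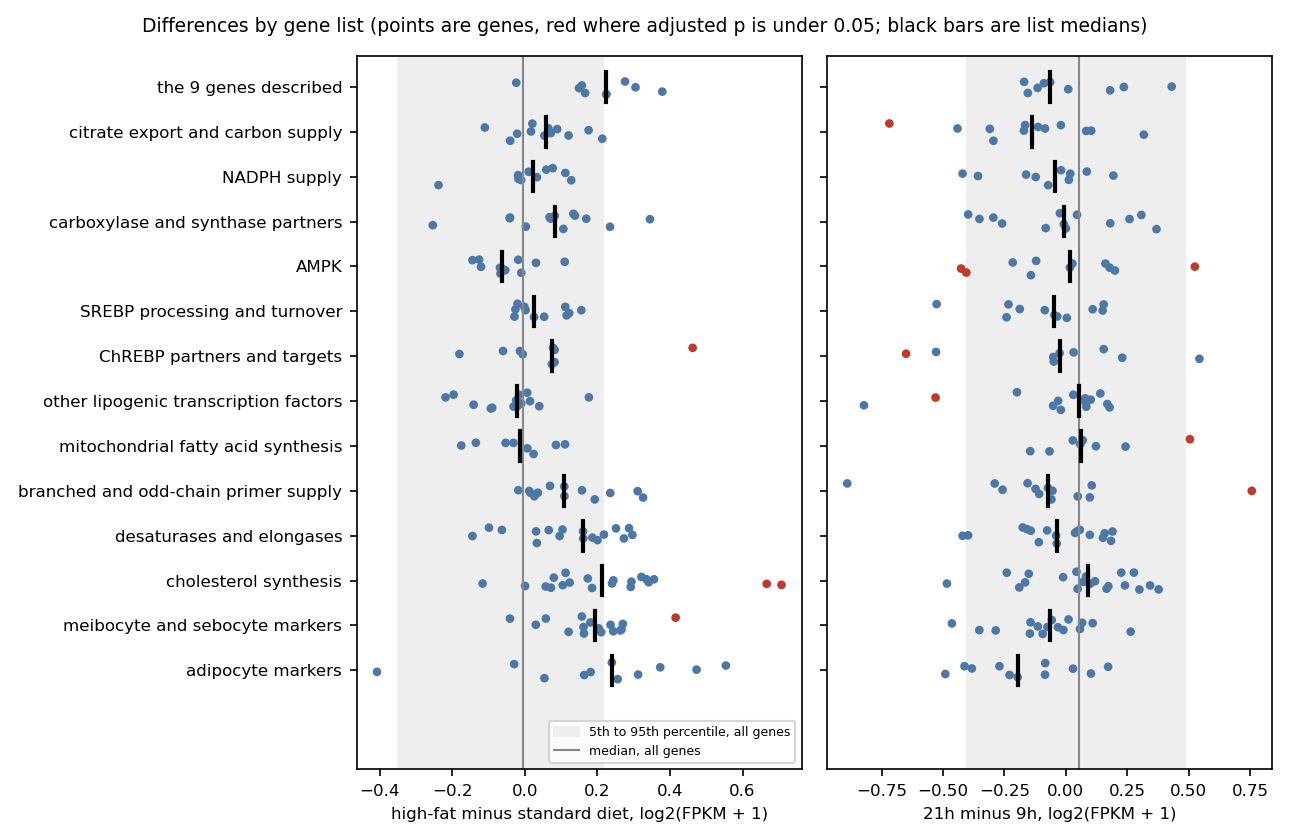
Differences in log2(FPKM + 1) for high-fat minus standard diet (left) and 21h minus 9h (right); each point is a gene, red where the adjusted p is under 0.05, black bars are list medians, and the grey band holds the middle of all genes tested from the 5th to the 95th percentile. In the left panel the bar of the 9 genes is at 0.22, beside those of cholesterol synthesis at 0.21 and the meibocyte markers at 0.19, and in the right panel it is at -0.06.

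Time of day gave no call among the 9 genes. Between 9h and 21h over both diets, limma called 796 of 13228 genes (6.02%), 342 higher and 454 lower, and 0 of 9 members. At an unadjusted p under 0.05 limma had 3738 genes (28.3%), with Thrsp as the 1 member, at 0.43 ± 0.17 (limma, adjusted p = 0.133). With limma-voom 0 of 9 passed, and 1 member and 3770 genes had an unadjusted p under 0.05. Acss2 differed by 0.24 ± 0.11 (adjusted p = 0.193), Srebf1 by -0.15 ± 0.08 (adjusted p = 0.257), Me1 by -0.17 ± 0.12 and Fasn by 0.01 ± 0.13. The median of the 9 was -0.06, with 4 of 9 above 0, against 0.05 over all genes tested.

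From 9h to 15h the members again had 0 of 9 calls, beside 3 of all genes (0.0227%; 2712 without the high-fat library numbered 6 at 9h). Acss2 had the smallest p there, with 17.5 ± 2.01 FPKM at 9h and 21.8 ± 1.17 FPKM at 15h (n = 4 each; 0.31 ± 0.11, limma, adjusted p = 0.147, unadjusted p = 0.0199). It was the 1 member with an unadjusted p under 0.05, beside 3064 of all genes tested (23.2%). From 15h to 21h none of the 9 passed and 0 genes did in all (0.0%; 588 at an unadjusted p under 0.05, none of them a member). Within controls the test over the 3 times called 3 genes (0.0227%; 838 and 839 without the high-fat library numbered 6 or 7 at 9h) and 0 of 9 members, with Thrsp at an unadjusted p of 0.0145 (limma, adjusted p = 0.198). Within high-fat mice it called 0 genes (0.0%; 63 without the high-fat library numbered 6 at 9h; 1155 at an unadjusted p under 0.05, none of them a member). Within controls 2421 of all genes tested (18.3%) had an unadjusted p under 0.05 in limma, with Thrsp as the 1 member. On the recovered reads limma-voom called 0 of 9 in each of these 4 tests, with 1, 0, 1 and 0 members at an unadjusted p under 0.05. Over all genes 3070, 487, 2423 and 1062 had such a p with limma-voom.

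Some genes of neighbouring steps changed with time. Of the 101 genes in the 9 lists, 3 were called higher and 5 lower at 21h than at 9h (7.92%, beside 6.02% of all genes). Bckdhb rose from 21.7 ± 6.47 to 36.7 ± 6.15 FPKM (n = 4 each; 0.76 ± 0.12, limma, adjusted p = 0.0218). Of the AMPK genes, the catalytic subunit Prkaa2 and the regulatory Prkab2 fell, by 0.43 ± 0.10 and 0.41 ± 0.07 on the log2 scale, while the regulatory Prkag1 rose by 0.52 ± 0.10 (limma, adjusted p = 0.0461, 0.0221 and 0.0295).

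Further calls were Slc2a4, the insulin-responsive glucose transporter (-0.65 ± 0.14), Rxra, a nuclear receptor partner (-0.53 ± 0.12), and Ndufab1, the mitochondrial acyl carrier protein (0.50 ± 0.11; limma, adjusted p = 0.0348, 0.0362 and 0.0322). Muscle markers moved with this contrast: their sum was 4978 to 6295 FPKM at 9h and 2652 to 4035 at 21h, 6 of 10 were called lower and the median was -0.88. The part of muscle in these values was not tested. Clock genes did change between the same libraries, with 6 called higher and 2 lower of 14, among them Per2 at 2.09 ± 0.13 (limma, adjusted p = 0.000436).

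The 10 calls named above for diet (Soat1, Txnip and Pmvk) and time (Bckdhb, Prkaa2, Prkab2, Prkag1, Slc2a4, Rxra and Ndufab1) were sensitive to single libraries. Each lost its call in 4 to 10 of 12 fits that left out 1 library, and all 10 lost it without the control library numbered 2 at 9h, without that numbered 2 at 21h and without the high-fat library numbered 3 at 21h, with adjusted p up to 0.151. With no filter on low values 7 of the 10 lost the call (all but Bckdhb, Prkab2 and Prkag1), and without both high-fat libraries numbered 6 at 15h and 21h all but Pmvk did. Per2 was called in all 12 fits that left out 1 library.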

How the data were processed

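RNA was sequenced from 12 eyelid libraries in 6 groups of 2. The authors deposited FPKM values for 21936 genes. HISAT2 2.0.5, HTSeq 0.9.1, DESeq 1.30.0 and the build mm9 are named per the submitters' processing notes, while the sources used here give neither the strand setting nor the annotation. Merged exon lengths of GENCODE M21 (GRCm38) returned whole reads within 0.02 for over 98% of the nonzero deposited values, so loci are given on GRCm38. No sample columns were left out.

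Genes above 1 FPKM in at least 2 libraries were fitted in limma 3.58.1 (R 4.3.3) on log2(FPKM + 1) with 6 group means, 6 residual degrees of freedom and Benjamini-Hochberg adjustment over 13228 genes, called under 0.05. This understates changes of low genes. The test was checked on simulated data. Permutations and tables used Python 3.11.15.

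The 9 genes and 26 lists were chosen with earlier results of these data known. All 9 are named. From the other lists, up to 3 genes with the smallest p for diet, 2 for 21h against 9h and every gene called could be named, and up to 3 genes by Pearson r for each member. A few results that this rule covers are not reported here. Alternatives were another pseudocount, no filter, equal medians, a replicate block, limma-voom on recovered reads, fits of single times or diets, and libraries left out.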

Additional observations from a re-analysis of the deposited data

Results flagged for a closer look

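Of 45 groups of 4 or 6 libraries examined for a library far from the others, 2 had one, and about 1 group in 20 would by chance. Acly in the control library numbered 1 at 21h was 73.3 FPKM, while the other 3 libraries of that time were at 93.6 to 96.8 FPKM, so that the gap made up 0.862 of the range (critical value 0.829). Mlxipl in the control library numbered 2 at 15h was 2.51 FPKM, while the other 5 controls were at 1.61 to 1.92 FPKM (0.654 of the range, critical value 0.625).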

How the results depend on the processing

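No member passed the threshold in any comparison under any alternative run, and the smallest adjusted p for diet averaged over times was 0.0552, for Acacb without 1 library. Each group has 2 libraries, and Thrsp and Mlxipl, with at most 85 and 216 reads in a library, are limited by counting error as well. Replicate numbers are shared by some groups. The 12 same-numbered pairs had correlations of -0.50 to 0.29, above 0.1 in 3, the highest between the high-fat libraries numbered 6 at 15h and 21h. In a group of 2 libraries the deviations mirror each other, so these values cannot decide if a number marks shared material. With the number as a replicate block, which leaves 2 residual degrees of freedom, the calls over all genes went from 262 to 0 for diet and from 796 to 0 for 21h against 9h. Under that block the averaged diet difference was -0.047 for Fasn and -0.095 for Acly, that at 9h was -0.13 for Acaca, -0.37 for Fasn, -0.32 for Acly and -0.023 for Srebf1, and that at 21h was -0.041 for Acaca and -0.12 for Acly. From 9h to 15h it gave 0.0089 for Me1, from 15h to 21h 0.057 for Acss2, and from 9h to 21h 0.064 for Acaca and 0.18 for Acly. These signs are opposite to those of the same differences in the fit without the block, not all of which are printed above. Numbers 6 and 7 occur only among high-fat libraries and number 1 only in a control, so the block overlaps with diet. The block fit therefore separates diet from number poorly, and the cause of the reversals was not tested.

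Other reversals follow. From 9h to 15h Mlxipl gave -0.0021 with a pseudocount of 0.1, -0.060 with equal medians, -0.0046 with limma-voom and -0.017 without the high-fat libraries numbered 6 at 15h and 21h, where Acly gave -0.0013. From 9h to 21h Fasn gave -0.042 with equal medians and -0.029 without those libraries. From 15h to 21h Acacb kept its sign, at 0.17, without them. Leaving out each library in turn moved the diet difference of Mlxipl between -0.086 and 0.038 (averaged), -0.33 and 0.038 (15h) and -0.22 and 0.016 (21h). At 9h the range was -0.081 to 0.23 for Acaca, -0.097 to 0.28 for Fasn, -0.16 to 0.27 for Acly and -0.25 to 0.22 for Me1, and at 21h it was -0.16 to 0.51 for Thrsp. From 9h to 15h it was -0.093 to 0.093 for Mlxipl, -0.034 to 0.25 for Thrsp, -0.037 to 0.18 for Acly and -0.19 to 0.050 for Me1. From 15h to 21h it was -0.073 to 0.098 for Acacb and -0.20 to 0.057 for Acss2, and from 9h to 21h -0.086 to 0.11 for Fasn and -0.17 to 0.043 for Acly. The log2 difference of the Acacb to Acaca ratio ranged from 0.085 to 0.22.

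The 10 calls on other genes listed last in the report were lost under the replicate block (adjusted p 0.0700 to 0.527), as was that of Per2 (0.0623), and Soat1 also lost its call with equal medians. Counts over all genes moved more: without 1 library, 143 to 293 genes were called for diet, 4 (without the control numbered 3 at 9h) to 3375 (without the high-fat library numbered 6 at 9h) for 21h against 9h, up to 155 for diet at 9h, up to 72 at 15h, up to 27 at 21h, up to 2712 for 15h against 9h, up to 839 for time in controls and up to 63 for time in high-fat mice. With no filter 21h against 9h gave 429, fits of single times gave 55, 0 and 0 for diet at 9h, 15h and 21h, and a fit of controls alone gave 751 for time in place of 3.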
